A study of Mus musculus with 2 samples.

Results

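The Trim genes encode the tripartite motif proteins, and they were examined here in mature mouse oocytes from young and aged mothers. Members were the rows of the deposited count table whose Ensembl identifier maps to a mouse symbol made of Trim and a number, with or without further letters or digits. The rule found 66 members among 36227 rows, and 2 further matching symbols of the mouse annotation, Trim43a and Trim61, had no row. It used symbols and no measured value, but the family was proposed with results of these counts known, so every value below is a description without a test. Relatives with other symbols (Pml, Mid1, Mid2 and Mefv) fall outside the rule and are described at the end.

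A tripartite motif protein carries a RING finger, 1 or more B-box zinc fingers and a coiled coil, and most act as ubiquitin ligases, the enzymes that attach ubiquitin to a chosen protein. The C-terminal part selects the target and sorts the family into classes, of which the one with a PRY-SPRY domain is the largest. Many members act in antiviral signalling. Others silence chromatin or organise microtubules, and the oocyte, which makes little new RNA once it is grown, depends on stored maternal transcripts and on timed protein destruction.

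For each age 1 library was made, from a pool of naturally ovulated ICR mouse oocytes at the MII stage, arrested in metaphase of meiosis II. Young mothers were 3 months old and aged mothers 12 months old, and each pool held 18 oocytes, 3 from each of 6 females. No other treatment, allele or agent is given for either group. Libraries held 19475110 counts (young) and 18597656 counts (aged), and levels are given as CPM, the count scaled to a common library total.

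With 1 library per age there is no replicate check, and all intervals are 95% exact (Clopper-Pearson) intervals that cover counting error only. Ratios are aged over young, scaled to library totals. A difference in a pool cannot tell fewer oocytes that hold a transcript from less of it in each. Each of 12 oocyte markers had 20 counts or more at both ages, with sums of 178465 CPM (young) and 98186 CPM (aged). Most of both sums was Gdf9 (97099 and 42795 CPM) and H1foo (53502 and 39296 CPM). Dppa3, Nlrp5 and Zp3 were higher in the aged library, and the other markers of this list were lower. Of 15 cumulus and granulosa markers, 7 were without a count at the young age and 9 at the aged one, and their sum of 24.7 and 58.2 CPM was almost all Cyp19a1 (436 and 1056 counts). Leukocyte markers summed to 4.36 and 4.73 CPM, nearly all of it Cd68 at 84 counts in each library, with 1 and 0 counts for Ptprc. The part of these markers in the results below was not tested.

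Of the 66 members, 14 had a blank in both count columns, 52 had a count, and 26 reached the floor used here, 20 counts on average per library. The table holds no row with 0 in both columns, so a blank may stand for 0 counts in both libraries, which the labels do not state. Just inside that floor lay Trim6, with 25 and 20 counts, and just outside it Trim67, with 21 and 16. The blank members were Trim9, Trim16, Trim29, Trim30b, Trim30c, Trim34b, Trim42, Trim46, Trim52, Trim55, Trim56, Trim58, Trim69 and Trim80. The young library had at least 1 count for 47 members and the aged library for 49.

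Most Trim RNA in the oocyte came from a pair of genes, and that pair was lower in the aged library. The rest of the family was higher as a sum, though Trim59 and some scarce members were lower. All members together took 0.355% of young counts (interval 0.352% to 0.357%) and 0.284% of aged counts (0.281% to 0.286%). Trim28 and Trim11 held 91.7% of the family's young counts and 80.1% of its aged counts. The other 50 members with counts went from 293 CPM (young) to 565 CPM (aged), 1.93-fold higher. The family total, at 3546 and 2837 CPM, was 1.25-fold lower.

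**Figure D1:**
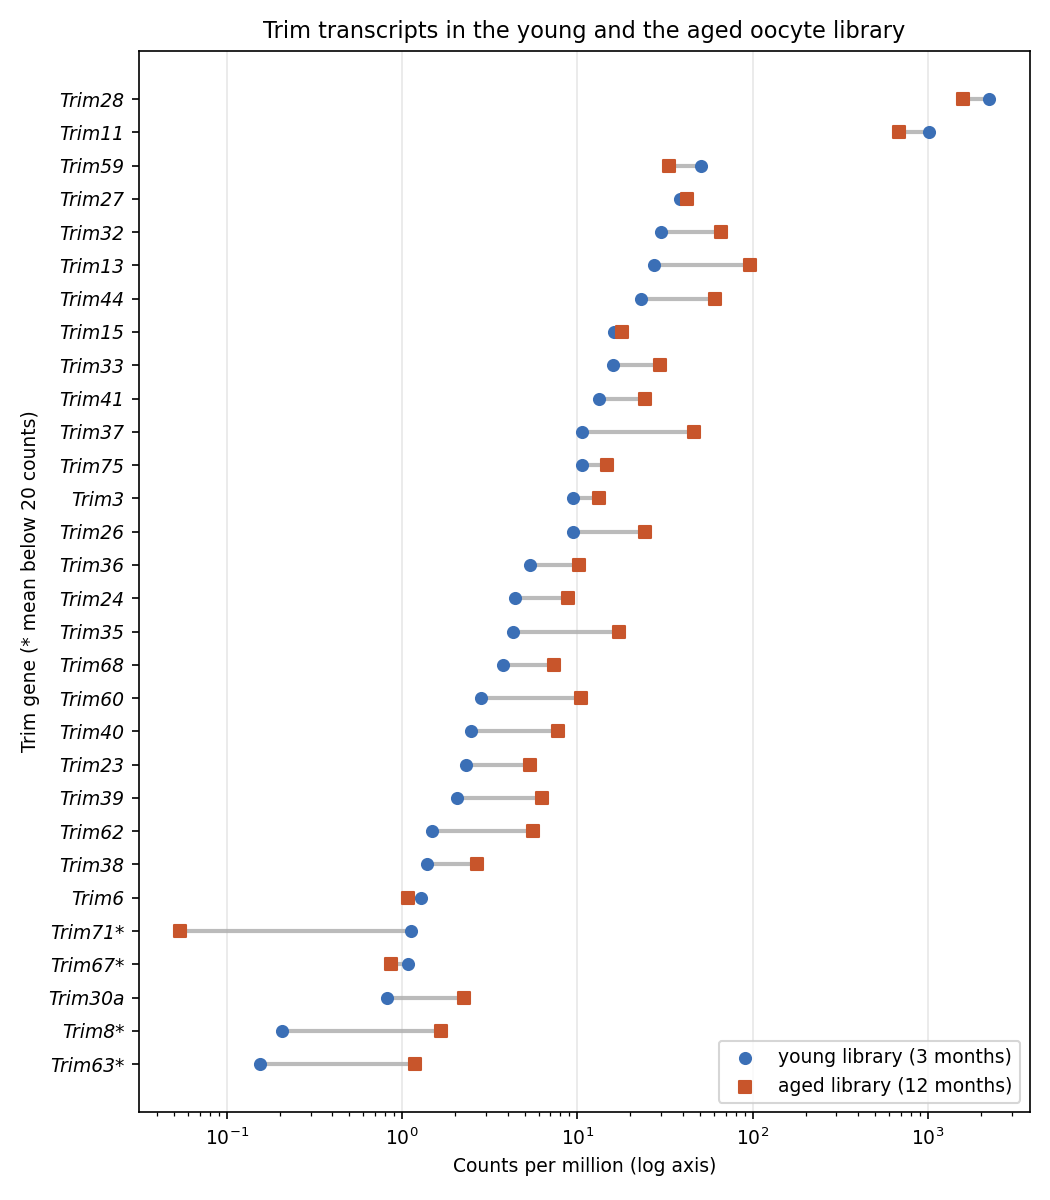
CPM (scaled counts, log axis) for the 26 Trim genes above the floor and, starred, the 4 below it with 20 counts in 1 library; circles are the young and squares the aged library, joined by a bar. Trim28 and Trim11 stand far to the right with the aged square left of the young circle, while most genes below them have the aged square to the right.

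Trim28 (ENSMUSG00000005566, chromosome 7) was the most abundant member. Its product, also called KAP1, is the corepressor that KRAB zinc finger proteins bring to DNA, and the maternal protein helps keep imprints in the early embryo. Young oocytes gave 43519 counts (2235 CPM) and aged oocytes 29556 (1589 CPM). Trim28 was therefore 1.41-fold lower in the aged library (interval 1.39 to 1.43). Per kilobase of its longest coding transcript, the level of Trim28 was 689 CPM (young) and 490 CPM (aged). Among 17215 counted genes with a transcript length, it ranked 93rd and 135th per length.

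Trim11 (ENSMUSG00000020455, chromosome 11), a PRY-SPRY ligase implicated in the clearance of misfolded proteins, came next. It had 19824 and 12695 counts, or 1018 and 683 CPM, and was 1.49-fold lower in the aged library (1.46 to 1.52). Per kilobase its level was 289 and 194 CPM. Both genes lay in a stratum of abundant transcripts whose median was near equality, under that of all genes, and both were lower than that median. The 291 genes with a mean of 10000 or more counts had a median log2 ratio of −0.03, against −0.49 for Trim28 and −0.58 for Trim11. The median of all genes was 0.43.

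Trim59 (ENSMUSG00000034317, chromosome 3) was the third and last member above the floor whose counting interval lay wholly below equality. It encodes a RING ligase anchored in membranes. Its 987 young counts (50.7 CPM) and 618 aged counts (33.2 CPM) made it 1.53-fold lower (1.38 to 1.69). Trim59 and Trim13 had like levels per kilobase in the young library, 17.2 and 16.97 CPM, and stood apart in the aged library at 11.3 and 59.9 CPM. Before division by length, Trim13 had 27.5 CPM (young) and 97.1 CPM (aged). Whether counts scale with annotated length in these libraries was not tested for any level per kilobase given here. Both belong to the class with a transmembrane segment, so the ratio was not shared within that class.

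The libraries were primed with oligo(dT), so a transcript was captured by its 3′ poly(A) tail. In oocytes that tail is lengthened or shortened on stored transcripts, under the control of a hexamer, the polyadenylation signal (AATAAA or ATTAAA), and of the nearby cytoplasmic polyadenylation element (TTTTAT or TTTTAAT). The 3′ ends below are examples chosen after their values were seen, of the 3 lower members Trim28, Trim11 and Trim59, of the higher members Trim13, Trim44 and Trim37, and of Trim71. Trim15 and Trim75 were added because the element overlaps the signal there. Each is 30 bases from the longest protein-coding transcript of GENCODE mouse release M21, in GRCm38 coordinates. Capitals mark a polyadenylation signal and any element within the window. TTTTAAT can overlap AATAAA in its last bases, and then both are in 1 run of capitals. Only the sense strand was searched.
Trim28, chr7:13031000-13031029, plus strand: ttctgtggatttAATAAAaacttcactgag
Trim11, chr11:58991426-58991455, plus strand: agggaaacatttaAATAAActcatttgaag
Trim59, chr3:69035313-69035342, minus strand: gTTTTATgtataacaatataTTTTAATAAA
Trim15, chr17:36860691-36860720, minus strand: gaggatgTTTTAATAAAatatgtaacctaa
Trim75, chr8:64980884-64980913, minus strand: tattaaatttagTTTTAATAAAaaaaaatg
Trim13, chr14:61605914-61605943, plus strand: agacagttttaaAATAAAtactgtttctct
Trim44, chr2:102300125-102300154, minus strand: catttggaaatcAATAAActattactggaa
Trim37, chr11:87220652-87220681, plus strand: taaccaaacaccAATAAAaagctgaacaat
Trim71, chr9:114507151-114507180, minus strand: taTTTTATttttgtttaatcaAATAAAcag

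Trim59 carried 3 matches to the element in its last 100 bases, with 1 of them overlapping the signal. Trim15 (log2 ratio 0.14) and Trim75 (0.48) had the overlapping form too. Trim11 had a TTTTAT match farther upstream, outside the bases printed. Trim28, Trim13, Trim44 and Trim37 had none in the last 100 bases. Of the 26 members above the floor, 9 (34.6%) held a match to the element, against 19.7% of 9902 genes. The median log2 ratio was 0.50 over these 9 and 1.15 over the other 17, a difference that was not tested. Over all genes the medians were close, 0.37 with a match and 0.45 without. A match is a run of letters at an annotated end, which need not be the end used in the oocyte.

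Away from the pair of abundant genes, the family was mostly higher in the aged library. Above the floor, 12 of 26 members passed 2-fold on the higher side, where 27.9% of all 10211 genes did. None was at least 2-fold lower, where 10.6% of all genes were. As a share, 46.2% of these members were at least 2-fold higher. Trim30a, with 16 and 42 counts, is among the 12 but passed the floor only through its aged counts, which fixed its direction. For 10 members the counting interval also lay above 2-fold, against 18% of all genes, and for none did it lie below 2-fold, against 6.35%. The log2 ratio was above 0 for 22 members (84.6%, against 66.4% of all genes). The interval lay wholly above equality for 20 members, against 54.4% of all genes, and wholly below it for 3, against 24.1%.

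The median log2 ratio of the 26 members was 0.99, with 0.43 for all genes. Since the median gene was itself higher in the aged library, each member's ratio relative to it is lower by 0.43. Relative to the median gene, 8 members were at least 2-fold higher, against 16% of all genes, and 2 were at least 2-fold lower, against 17.3%. Those 2 were Trim59 and Trim11, at −1.03 and −1.002. With TMM scaling, which trims the most extreme genes before it sets the library sizes, 9 members were at least 2-fold higher, against 17.2%, and none lower, against 16.3%. Trim27 and Trim15 were the 2 members above the floor whose sign turned with centring, and it turned with TMM as well.

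**Figure D2:**
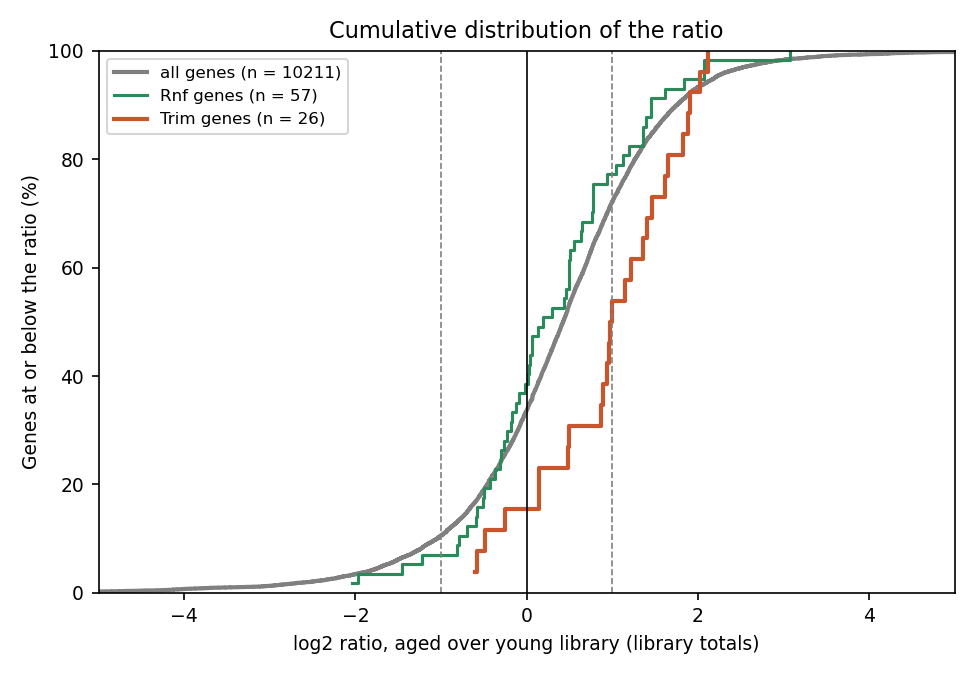
Cumulative share of genes (%) at or below each log2 ratio of aged over young, for the 26 Trim genes, 57 Rnf genes and all 10211 genes above the floor; dashed lines mark 2-fold, and 49 genes lie outside the drawn range. The Trim curve lies to the right of that of all genes between the 2-fold marks, and meets it near a log2 ratio of 2.

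The same values are given for 2 other groups of ubiquitin ligase genes. The Rnf genes, named for a RING finger, had 57 genes past the floor, with a median log2 ratio of 0.19. Of these, 13 (22.8%) were at least 2-fold higher and 4 (7.02%) lower. The Fbxl, Fbxo and Fbxw genes, which encode the substrate receptors of another ligase type, had 56, with a median of 0.53. Of these, 19 (33.9%) were higher and 7 (12.5%) lower. Over all genes the shares were 27.9% and 10.6%, and the median was 0.43. With 1 library per age, the differences between these families were not tested.

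Trim37 (ENSMUSG00000018548, chromosome 11) had the highest ratio above the floor. Its product, the 1 member with a MATH domain, is a ubiquitin ligase that restrains microtubule organising centres formed outside centrosomes. With 207 young counts (10.6 CPM) and 855 aged counts (46.0 CPM), it was 4.33-fold higher (3.71 to 5.06). Relative to the median gene its log2 ratio was 1.69. Trim13 (ENSMUSG00000035235, chromosome 14), a ligase of the endoplasmic reticulum that acts in the disposal of misfolded proteins, had 535 and 1805 counts. It was 3.53-fold higher (3.21 to 3.90) and became the third most abundant member per kilobase in the aged library. Relative to genes of like length and GC content its log2 ratio of 1.82 was 0.92, under 2-fold.

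The PRY-SPRY class, to which Trim11 belongs, had 37 members in the table and 14 above the floor. Of these 14, 6 passed 2-fold on the higher side and none on the lower, against 27.9% and 10.6% of all genes. The median log2 ratio was 0.97, against 0.43. The 6 were Trim35, Trim62, Trim60, Trim39, Trim26 and Trim30a, the last of which passed the floor only through its aged counts. Relative to the median gene 5 were still at least 2-fold higher, all of these but Trim26, and Trim11 was at least 2-fold lower, against 16% and 17.3% of all genes.

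Trim35 had 83 young and 323 aged counts and was 4.08-fold higher (3.19 to 5.25). Trim62, which encodes a regulator of epithelial polarity, had 29 and 104 counts and was 3.76-fold higher (2.47 to 5.88). Trim60 had 55 and 194 counts and was 3.69-fold higher (2.73 to 5.08). These 3 genes were scarce, all under 18 CPM in both libraries, so their ratios rest on few reads in the young library.

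Trim39, whose product inhibits the anaphase-promoting complex, had 40 and 117 counts and was 3.06-fold higher (2.12 to 4.503). Trim30a, which restrains NF-κB signalling, had 16 and 42 counts, 2.75-fold higher, and its interval (1.51 to 5.24) reached below 2-fold. Relative to genes of like length and GC content its log2 ratio was 0.37. Trim26, a regulator of interferon induction, was 2.57-fold higher (2.16 to 3.07) with 183 and 449 counts.

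A second set of PRY-SPRY genes was higher by less than 2-fold. Trim68, a coactivator of the androgen receptor, had 73 and 137 counts, a log2 ratio of 0.97. Trim38, which dampens antiviral signalling, had 27 and 50 counts, a log2 ratio of 0.96. Trim41, a ligase for protein kinase C, had 260 and 452 counts, a log2 ratio of 0.86. All 3 intervals lay above equality, and those of Trim68 and Trim38 were wide (0.55 to 1.40 and 0.25 to 1.69).

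Trim75, with 206 and 274 counts, had a log2 ratio of 0.48 (0.21 to 0.75), above equality but at 0.05 relative to the median gene. Near equality lay Trim27 and Trim15. Trim27, which builds ubiquitin chains in endosomal recycling, had 746 and 785 counts, a log2 ratio of 0.14 (−0.01 to 0.29). Trim15, a focal adhesion protein, had 315 and 332 counts, also at 0.14 (−0.08 to 0.37). The intervals of Trim27 and Trim15 hold equality. So does the wide interval of Trim6, which makes unanchored ubiquitin chains in interferon signalling (25 and 20 counts, −1.18 to 0.65). The log2 ratio of Trim6 was −0.26. It was −0.68 relative to the median gene and −0.98 relative to genes of like length and GC content.

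**Figure D3:**
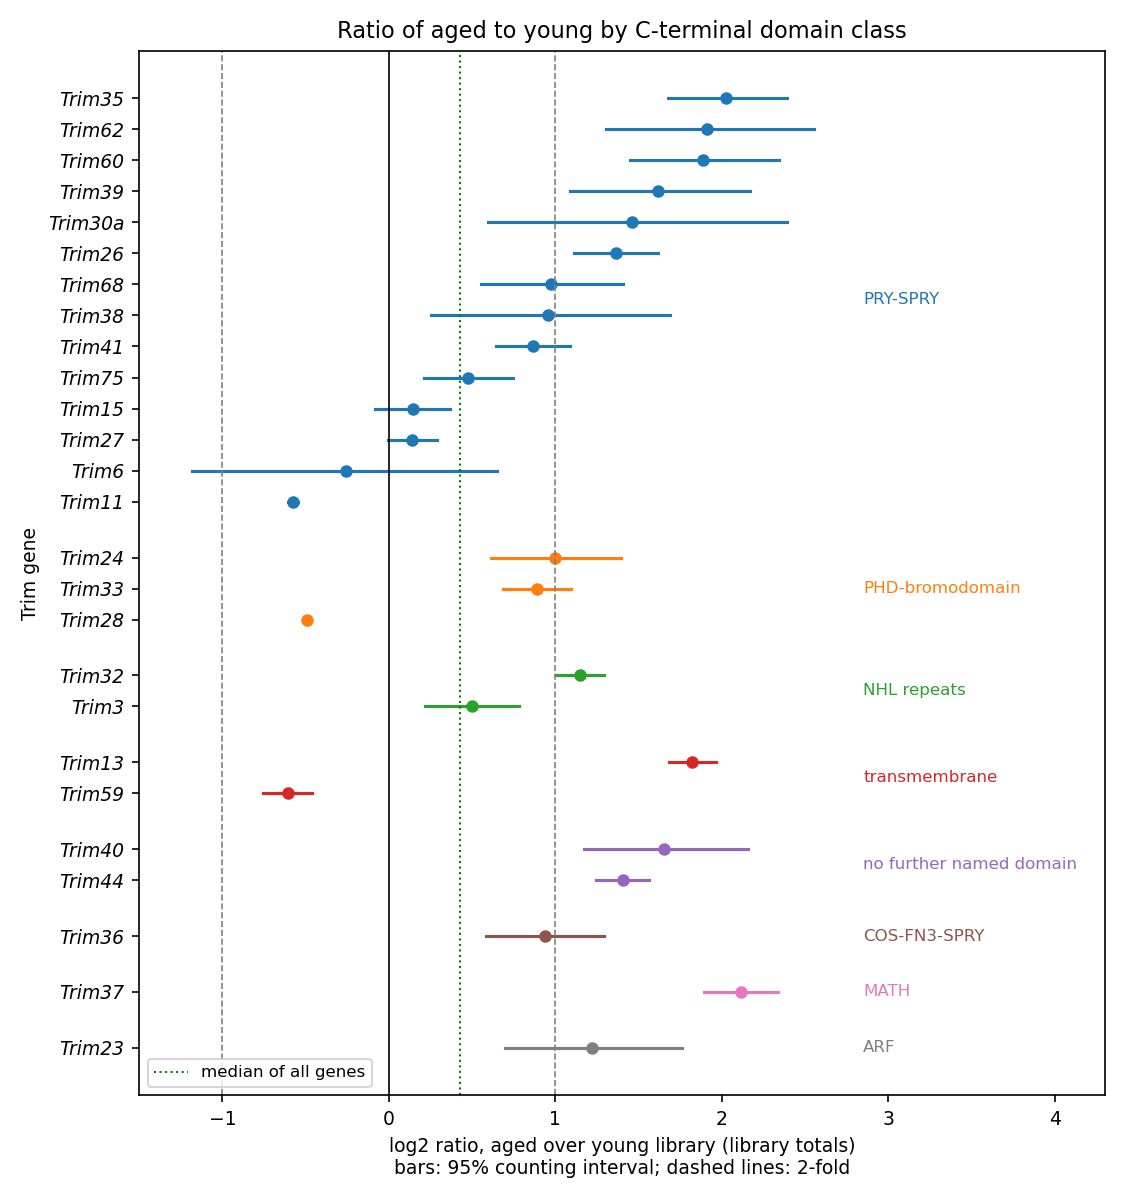
Log2 ratio of aged over young for the 26 Trim genes above the floor, with 95% counting intervals as bars, grouped and coloured by C-terminal domain class; the dotted line is the median of all genes (0.43) and dashed lines mark 2-fold. Trim11, Trim28 and Trim59 lie left of 0 with their intervals, and the points of Trim35 and Trim37 lie beyond 2.

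The class with a PHD finger and a bromodomain, which reads chromatin marks, holds Trim28 and 2 scarcer genes above the floor. Trim24, a co-regulator of nuclear receptors, had 86 young and 164 aged counts. Its log2 ratio of 0.998 (0.61 to 1.39) lay just under 2-fold. Trim33, which acts on Smad4 in TGF-β signalling, had 309 and 547 counts, a log2 ratio of 0.89 (0.69 to 1.10), which turned to −0.05 relative to genes of like length and GC content. The remaining gene of the class, Trim66, lay below the floor with 2 and 19 counts, a ratio of 9.95 (2.40 to 88.1).

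Of the genes with NHL repeats, a fold that often binds RNA, 2 lay above the floor. Trim32, a ligase mutated in a form of limb-girdle muscular dystrophy, had 581 and 1230 counts and was 2.22-fold higher (2.01 to 2.45). Its log2 ratio of 1.15 became 0.72 once centred on the median gene and 0.81 against genes of like length and GC content. Trim3, a brain-enriched member, had 184 and 248 counts, a log2 ratio of 0.50. Trim71, a let-7 target that represses messenger RNAs in stem cells, went the other way below the floor, with 22 young counts and 1 aged count. That is a ratio of 0.0476 with an interval of 0.00115 to 0.294, since it rests on a single count.

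Trim44 and Trim40, which have no further named C-terminal domain, were both higher. Trim44, which lacks a RING finger and stabilises partner proteins, had 449 and 1135 counts and was 2.65-fold higher (2.37 to 2.96). Its log2 ratio of 1.40 became 0.98 once centred on the median gene and 0.72 against genes of like length and GC content. Trim40 had 48 and 144 counts and was 3.14-fold higher (2.25 to 4.45). Trim23, which ends in an ARF-type GTPase domain, had 45 and 100 counts and was 2.33-fold higher, with an interval of 1.62 to 3.39. Its log2 ratio of 1.22 became 0.79 once centred on the median gene and 0.13 against genes of like length and GC content, both under 2-fold. Trim36, a microtubule-associated ligase of the class with COS, FN3 and SPRY domains, had 104 and 190 counts, a log2 ratio of 0.94 (0.58 to 1.30).

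Below the floor, 4 members had at least 20 counts in 1 library. Beside Trim71 and Trim67, these were Trim8, which acts in cytokine signalling, with 4 and 31 counts, a ratio of 8.12 (2.87 to 31.6). Trim63, the muscle ligase MuRF1, had 3 and 22 counts, a ratio of 7.68 (2.31 to 40.1). Striated muscle markers summed to 2 counts in each library, with no count for Ckm or Acta1.

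The remaining 22 counted members held at most 19 counts in a library and summed to 64 (young) and 120 (aged). For 12 of them both counts were at most 3, and no ratio is given. Of the rest, 4 that were chosen after their values were seen had intervals above equality. They were Trim66, Trim47 (3 and 12 counts), Trim21 (3 and 14) and Trim30d (0 and 16). Trim21, the cytosolic antibody receptor used to deplete proteins from oocytes, reached 0.753 CPM at most. A count of 0 in the young library allows up to 0.154 CPM. With 3 counts in place of its 0, Trim30d was 5.58-fold higher, and its counting interval begins at 4.04-fold. None of the 22 had an interval wholly below equality. Neither share was computed over all genes below the floor, so these counts have no background. Trim25, the activator of RIG-I, had 7 and 1 counts, a ratio of 0.150 (0.00332 to 1.16).

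Several members stand in runs along a chromosome without sharing a level or a ratio. In GRCm38, 5 members on chromosome 17 follow one another with no other protein-coding gene between, in the order Trim26, Trim15, Trim10, Trim40 and Trim31. Trim26 and Trim40 were each over 2-fold higher, while Trim15 was near equality, Trim10 had 9 counts in each library and Trim31 had 15 and 13. On chromosome 11 a single gene separates Trim11 from Trim17, which had 7 and 8 counts. On chromosome 7 a run of 10 members, from Trim6 to Trim30d, held only Trim6 and Trim30a above the floor.

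Reads of near-identical copies may be shared. In the longest transcript of Trim13, 29.3% of the 31-base words also occur in another gene, mainly Gm9359, in Trim59 12.6%, mainly Gm15381, and in Trim30a 11.8%, mainly its neighbour Trim30d. For the other 23 members above the floor the share was under 3%. Exons of Trim41 overlap Rack1 on the opposite strand, which had 20518 and 18638 counts. Those of Trim60 overlap Trim61, which has no row in the deposited table. Exons of Trim35 overlap 1700001G11Rik, which had 9 and 0 counts. Neither the use of strand in counting nor the handling of reads that match several genes is stated in the labels. The values of these 6 genes are therefore uncertain.

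The GC content of the 26 members ran from 37.4% (Trim23) to 59.6% (Trim28). Across all genes the ratio was lower at higher GC content (Spearman's rho −0.40 over 9902 genes), but across the 26 members rho was −0.10. Genes of the same 2 libraries share depth and amplification, so these are descriptions. Relative to genes in the same bin of length and GC content, Trim59, a transcript of 37.6% GC, stood farther from equality at −1.54, and Trim62, of 58.7% GC, at 2.18. Trim28 and Trim11 came nearer to it, at −0.33 and −0.45. After this correction 8 members were at least 2-fold higher and 1, Trim59, was lower. The share of all genes past 2-fold after it was not computed, so these counts have no background. The correction took 5 of the 12 members higher by 2-fold below that mark, Trim13, Trim32, Trim44, Trim30a and Trim23, and brought Trim41 to 1.03. It turned the sign of 4 members, Trim75 (−0.31), Trim27 (−0.22), Trim15 (−0.06) and Trim33 (−0.05).

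**Figure D4:**
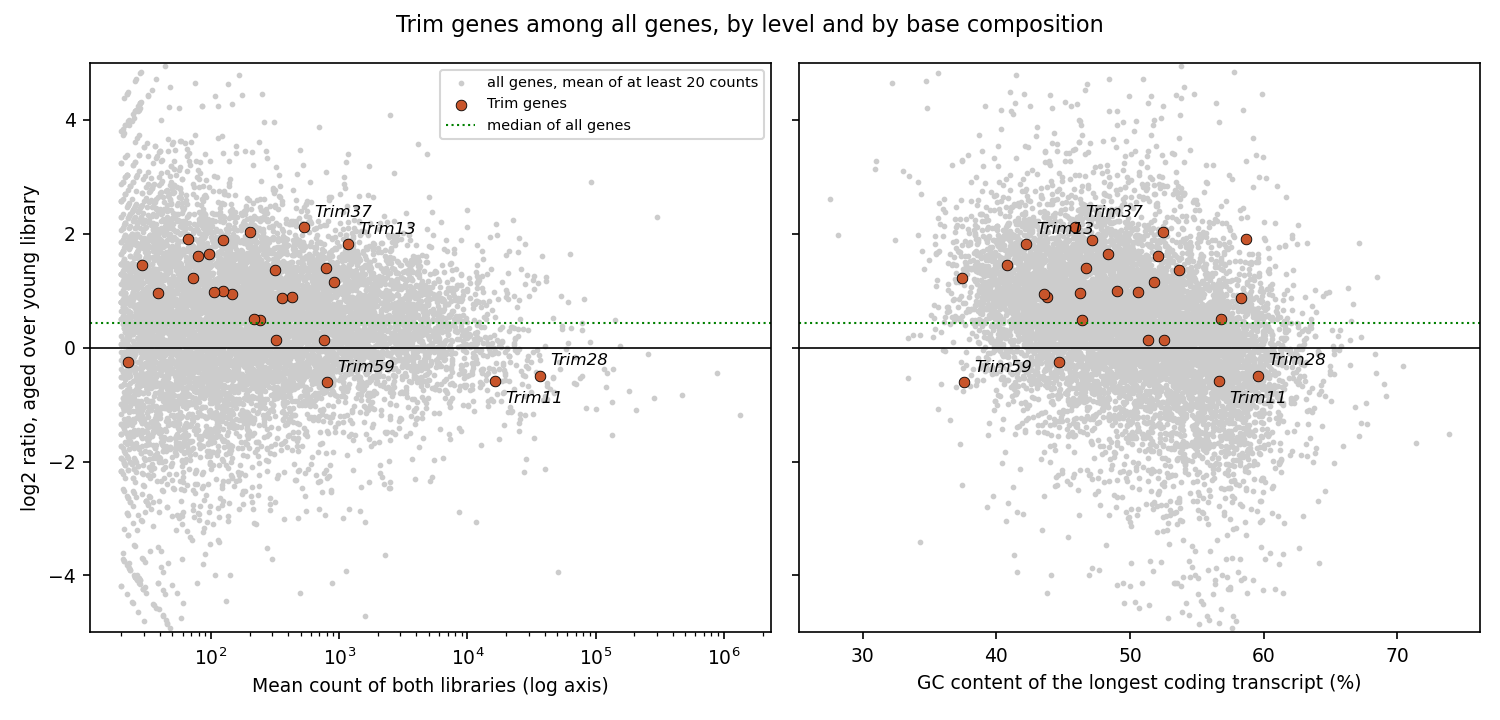
Log2 ratio of aged over young against the mean count (left, log axis) and against transcript GC content in % (right) for all genes above the floor in grey and the 26 Trim genes in colour; the dotted line is the median of all genes, and 49 genes lie outside the drawn range. Trim28 and Trim11 are the 2 Trim points at over 10000 counts, and Trim genes above 1 occur across the range of GC content.

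Among partners of Trim28 in silencing, 12 genes lay above the floor, with a median log2 ratio of 0.21 against 0.43 for all genes. Of these 3 (25%) were at least 2-fold higher and 1 (8.33%) was lower, near the 27.9% and 10.6% of all genes. Relative to the median gene, 1 (Cbx1) was higher and 2 (Setdb1 and Zfp57) were lower, against 16% and 17.3%. Setdb1, the histone methyltransferase that Trim28 recruits, had 426 and 188 counts, 2.16-fold lower. Zfp57, a KRAB zinc finger protein that marks imprints, had 678 and 326 counts, a log2 ratio of −0.99, and Dnmt1, the maintenance DNA methyltransferase, was at −0.43. The heterochromatin protein gene Cbx1 was 3.96-fold higher (703 and 2661 counts), Uhrf1, a partner of Dnmt1, 2.67-fold higher (894 and 2279) and Dppa3, which protects maternal methylation, 2.16-fold higher (18205 and 37625).

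Genes of the let-7 pathway, in which Trim71 acts, numbered 7 above the floor, with 4 at least 2-fold higher and none lower, against 27.9% and 10.6% of all genes. Relative to the median gene, 2 were higher and 1 was lower, against 16% and 17.3%. The median log2 ratio was 1.20, against 0.43. Lin28b and Lin28a, which block let-7 maturation, were 2.76-fold higher (287 and 757 counts) and 2.29-fold higher (1214 and 2657 counts). Hmga2, a let-7 target, was 2.46-fold higher. The uridylyltransferase gene Tut7 had 1 and 41 counts, a log2 ratio of 5.42 with an interval of 2.87 to 10.76. It is among the higher genes counted above, but passed the floor only through its aged counts, which fixed its direction.

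Nucleic acid sensing and interferon signalling, the field of many PRY-SPRY members, had 14 listed genes above the floor. Among them 3 (21.4%) passed 2-fold on the higher side and 1 (7.14%) on the lower, against 27.9% and 10.6% of all genes. Relative to the median gene, 1 was higher and 2 were lower, against 16% and 17.3%. The median log2 ratio was 0.63, against 0.43. Ddx58, which encodes the RNA sensor RIG-I, was 5.68-fold higher with 26 and 141 counts, the kinase gene Map3k7 2.30-fold higher and the kinase gene Tbk1 2.24-fold higher. Nfkb1 was 3.09-fold lower, with 194 and 60 counts. Among the tripartite motif genes with other names, Mid1, a microtubule-bound ligase, had 48 and 95 counts, 2.07-fold higher. Pml, the organiser of nuclear bodies, had 30 young counts and 2 aged counts, a log2 ratio of −3.84 (−6.95 to −1.86). Mid2 and Mefv were blank.

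In the authors' deposited table, 27 of the 45 members with a fold change are marked at p below 0.001, of which 23 (51.1%) were more abundant at the aged time and 4 (8.89%) less. In the authors' deposited table the same marks cover 34.4% and 15.6% of the 15387 genes with a fold change. Those p-values, as the authors' deposited table gives them, set 1 library against another and carry no spread between mothers.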

How the data were processed

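Counts per Ensembl gene are as deposited by the authors, unnormalized whole numbers for 1 young and 1 aged library. The deposited log2 fold changes, score (z value) and p-value columns are the authors', and only the marked genes were used. Per the labels' protocols, cDNA was made from an oligo(dT) primer of 24 bases, tailed and amplified by 18 and 14 cycles of PCR without molecular identifiers. The build was mm9, per the submitters' processing notes. Aligner, counter and gene annotation: not given in the sources used here. Sequence features and coordinates are from GENCODE M21 (GRCm38), another build.

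Symbols matched 85.5% of rows. Ratios use library totals, a count of 0 was set to 3, and no ratio was made where neither count exceeded 3. Every member with a mean of 20 counts, or 20 counts in 1 library, is named, and up to 4 genes of each related list that differed most. Other named genes were chosen after their values were seen, among them Zfp57, Dnmt1, Pml and Trim25. Domain classes, lists and members were chosen with earlier results of these data known. Ratio and interval code was tested on simulated data. Python 3.11.15 (numpy 2.4.6, scipy 1.17.1, pandas 2.3.3, matplotlib 3.10.9) was used, and edgeR 4.0.16 in R 4.3.3 for TMM factors only (0.878 and 1.14). Alternatives changed the scaling, the floor, the treatment of low counts and the length and GC correction.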

Additional observations from a re-analysis of the deposited data

How the results depend on the processing

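No paired analysis was possible because each age has 1 library, and for the same reason no library could be left out. The number of members at least 2-fold higher was 12 and ranged from 8 to 12 over the other scalings, the added 5 counts, the length and GC bins and the interval rule. It was 19 with no floor and 7 with a floor of 100 counts, which test more and fewer genes. The share over all genes was computed only for library totals, centring, TMM and the interval rule. The number at least 2-fold lower was 0, and became 2 with centring on the median gene, 2 with no floor (Trim71 and Trim25) and 1 with length and GC bins (Trim59). The median log2 ratio of 0.99 was 0.56 with centring, 0.61 with TMM, 0.70 when the 100 most abundant genes stayed out of the totals and 0.56 with length and GC bins. For the PRY-SPRY class the median of 0.97 became 0.54, 0.59, 0.68 and 0.53 under the same settings, and 0.86 with a floor of 100 counts. With those 100 genes, Trim28 among them, out of the counts, the family's share was 0.264% (young) and 0.207% (aged), and no member was at least 2-fold lower. No member at least 2-fold apart changed sign among those with 20 counts on average or in 1 library, under any setting computed for it. Trim8, Trim63 and Trim71 have no value with length and GC bins. Trim66, Trim47, Trim21, Trim30d and Trim25 were not followed through all of these settings. Members under 20 counts in the young library rest on few reads.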
